A study of Mus musculus with 13 samples.

Results

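Non-cycling Lgr5-positive cells of the mouse small intestine were examined as a rule-defined set within 13 CEL-seq libraries, in which each transcript is counted once at its 3' end through a cell barcode and a molecular barcode. A cell was a member if it had at least 3000 transcripts without spike-in RNA, at least 1 Lgr5 transcript and low summed levels of cell cycle, tuft, enteroendocrine, goblet and Paneth genes. Per 10000 transcripts, the 8 cell cycle genes Mki67, Top2a, Ube2c, Ccna2, Cdk1, Birc5, Cenpa and Cdca3 had to sum to under 8, the tuft genes Dclk1, Trpm5 and Rgs13 to under 20 and the endocrine genes Chga and Chgb to under 10. The goblet gene Fcgbp had to be under 30, and all named defensins (Defa symbols) with Gm14851 and Gm15284 under 500. Members were thus chosen by their own measured transcripts, and values of these genes are given as a description. The rule gave 75 members among 892 kept cells, from 1248 barcodes.

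The mice carried Lgr5-CreERT2 on C57Bl6/J and the Rosa26LSL-YFP reporter, so that tamoxifen labels cells in which Lgr5 drives the recombinase, together with their later offspring. Traced means YFP-positive after this labelling, and the non-traced libraries come, per the labels, from the same cross. The groups were traced cells 5 days after tamoxifen (5 libraries, no CD24 gate named), traced CD24+ cells at 3 weeks (1 library), a library labelled as non-traced CD24+ at 3 weeks (1), traced CD24+ cells at 8 weeks (3), traced cells at 8 weeks without a CD24 gate (1) and non-traced CD24+ cells at 8 weeks (2). CD24 is a surface protein that served as a sorting gate. Age and sex of the mice and the number of mice per library were not given in the sources used here, so that p-values measure the spread between libraries, which may in part be technical.

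Lgr5 encodes a receptor for R-spondins, secreted proteins that amplify Wnt signalling, and it marks the crypt base columnar cells that lie between Paneth cells and renew the epithelium. Ascl2 encodes a Wnt-driven transcription factor of these cells, Smoc2 a matricellular protein, Slc12a2 a sodium, potassium and chloride cotransporter, Clca4 a chloride channel regulator family protein and Gkn3 a gastrokine. Most crypt base columnar cells divide often, so that cells low in cycle genes are mainly those outside S, G2 and M phases when sampled. The Lgr5 gene lies at chr10:115450311-115587780 on the minus strand, Ascl2 at chr7:142966829-142969264, also on the minus strand, and Smoc2 at chr17:14279506-14404790 on the plus strand (GENCODE vM21, mm10).

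Libraries held 421675 to 1385266 transcripts, and the median kept cell held 5412 to 14458. The 75 members had a median of 9552 transcripts (3250 to 42379) from a median of 3447 genes, and 5 of them exceeded 30000 transcripts. All libraries used the same 96 barcode numbers, so a shared barcode says nothing about shared cells. One library stands apart: in the library whose label reads non-traced CD24+ at 3 weeks, spike-in RNA took 16.6% of counts, the 8 members held 55.6 Cd24a transcripts per 1000000 summed transcripts (CPM, the unit of all levels below) against 340 to 3232 in the members of the other 12 libraries, and identical values stand in the combined table under a name with YFP and without CD24, so that the label is in doubt. It enters no test. In the Lgr5 count itself, 31 members had exactly 1 transcript, 9 had 2, 19 had 3 to 5 and 16 had 6 or more (highest 23). At the limits of the rule, the highest member stood at 7.69 for the cycle genes and the lowest cell outside on that limit alone at 8.08. For the tuft genes these values were 19.2 and 21, and for the Paneth genes 347 and 1318.

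A single Lgr5 transcript is weak evidence on its own, and the share of cells with one in other cell types gives the background. Among cells over the goblet limit 15.7% had an Lgr5 transcript (median 8719 transcripts per cell), among cells over the enteroendocrine limit 19% (6671), and among cells over the Paneth limit 42.5% (17889). Cells under every limit had one in 35.2% (7707), and cells over the tuft limit in 49.6% (7196). After each cell was thinned to 3000 transcripts, the shares were 3.92% for goblet, 8% for enteroendocrine, 5% for Paneth, 29.5% for tuft and 23% for cells under every limit. Cells under every limit thus held Lgr5 well above the goblet and Paneth cells at equal depth, and cells over the tuft limit were not below them. Lgr5 stood at 119 CPM under every limit, 137 over the tuft limit, 41.2 over the Paneth limit and 17 over the goblet limit.

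Of the other 5 stem cell markers, which the rule does not use, all but Gkn3 were detected in most members. Slc12a2 was detected in 93.3% of members and in 63% of the 138 kept cells that met every other condition but held no Lgr5 transcript (Lgr5-undetected cells). The corresponding shares were 93.3% and 65.2% for Clca4, 86.7% and 58% for Smoc2, 56% and 23.2% for Ascl2, and 38.7% and 17.4% for Gkn3. The Lgr5-undetected cells were shallower, with a median of 7114 transcripts, and after thinning to 3000 transcripts the shares were 89.3% and 50% for Slc12a2, 69.3% and 37.7% for Smoc2 and 28% and 9.42% for Ascl2. Cells over the tuft limit, which carry Lgr5 no less often than cells under every limit, had Gkn3 in 1.44% and Clca4 in 37.4%. They had Smoc2 in 43.9%, Ascl2 in 46.8% and Slc12a2 in 56.8%. After thinning, 26.6% of them had Ascl2, close to the 28% of members. Of the 75 members, 21 had all 5 markers, 26 had 4, 18 had 3, 6 had 2, 1 had 1 and 3 had none.

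In sum per cell, the 5 markers reached a median of 39.2 per 10000 transcripts in members (0 to 79.9), 9.73 in Lgr5-undetected cells and 32.4 in the 106 cycling Lgr5-positive cells, which passed every condition except the cycle limit. A sum of at least 20 was found in 60 members, or 80%, against 37% of Lgr5-undetected and 83% of cycling cells. The 15 members under 20 were not spread evenly: 6 came from the 3-week library labelled as non-traced, which has 8 members, and 12 of the 15 had a single Lgr5 transcript.

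Some members carried markers of a differentiated type that the limits of the rule let through. The limits include no enterocyte gene, and 5 members held 126.2 to 759 enterocyte marker transcripts per 10000 (10 genes, among them the apolipoproteins Apoa1 and Apoa4 and the fatty acid binding proteins Fabp1 and Fabp2), while the other 70 held at most 67.7. Each of the 5 had exactly 1 Lgr5 transcript and a stem marker sum of at most 1.79. Of these, 3 lie in the 3-week library labelled as non-traced, 1 in 5-day replicate 1 and 1 in 5-day replicate 2. Goblet markers other than Fcgbp summed to 232 to 410 in 3 members, of 8-week traced replicate 3 and both non-traced libraries, and to at most 31.8 in the others. These 3 cells also held Paneth markers outside the rule at 86.3 to 321, against at most 66.5 in the others, and stem markers at 3.10 to 18.5. Tuft markers outside the rule stood at 14.4 to 22.6 in 3 members, 1 each in 8-week traced replicate 1 and the non-traced libraries, and at most 4.36 elsewhere. The stem marker sums of these 3 were 26.3, 32.99 and 11.99, so that 2 of them held tuft and stem markers side by side. These 11 cells were singled out after their values were seen. Without them the median stem marker sum of members was 41.9. Because some members carry markers of other types, the set is called non-cycling Lgr5-positive cells throughout. No doublet detection was run, and whether such cells are doublets was not tested.

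**Figure D1:**
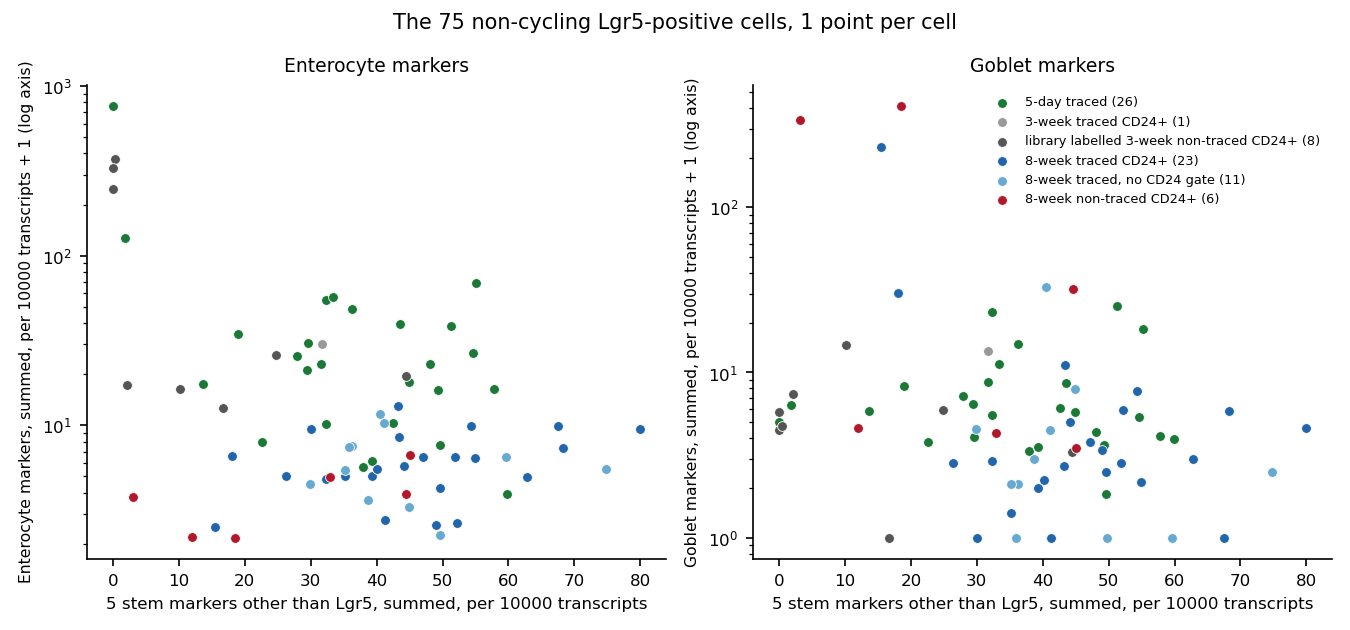
Each of the 75 non-cycling Lgr5-positive cells by its summed Ascl2, Smoc2, Slc12a2, Clca4 and Gkn3 (horizontal, per 10000 transcripts) and its summed enterocyte (left) or goblet (right) markers without Fcgbp (vertical, per 10000 plus 1, log axis), with colours for the sample groups. Most cells lie at stem sums of 20 to 80 and low differentiated sums, and 5 enterocyte-rich and 3 goblet-rich cells lie at stem sums under 20.

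Markers of other tissues were almost absent from the members. Of 9 leukocyte markers at most 1 was detected in any library's members, in 1 cell in all. Of 8 stromal and endothelial markers only 4 were among the genes with values, and at most 1 was detected, in 2 cells in all. Enteroendocrine markers outside the rule summed to 0 to 2.63 per 10000 in the 5-day libraries and 1.25 to 2.19 in the 8-week traced CD24+ libraries.

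By library, the levels of 5-day and 8-week traced members overlapped for each of the 5 stem markers outside the rule. Slc12a2 stood at 1260, 1083, 1289, 998 and 1101 CPM in 5-day replicates 1 to 5 and at 1036, 1775 and 1264 in 8-week traced CD24+ replicates 1 to 3. Smoc2 stood at 439, 361, 423, 315 and 576 and at 514, 481 and 349. Clca4, the most abundant of the 5, stood at 2345, 1399, 1564, 1734 and 1415 and at 1979, 2710 and 2560. For Clca4, 8-week replicates 2 and 3 lay above every 5-day library.

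Ascl2 had 120, 45.1, 148, 210 and 314 CPM at 5 days and 101, 124 and 171 at 8 weeks. Gkn3 had 279, 135, 232, 210 and 367 at 5 days and 42.1, 193 and 178 in the 8-week CD24+ libraries. In the 8-week library without the gate, no Gkn3 transcript was found in 11 members, which allows up to 28.3 CPM, beside 416 for Smoc2, 1313 for Slc12a2 and 2381 for Clca4. The members of the 3-week library labelled as non-traced were low in 4 markers, with 250 for Slc12a2, 348 for Clca4, 55.6 for Smoc2 and 13.9 for Ascl2, and held no Gkn3. Lgr5, which the rule uses, stood at 191 to 271 at 5 days, 237 to 426 in the 8-week traced CD24+ libraries, 453 without the gate and 147 and 169 in the non-traced libraries.

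**Figure D2:**
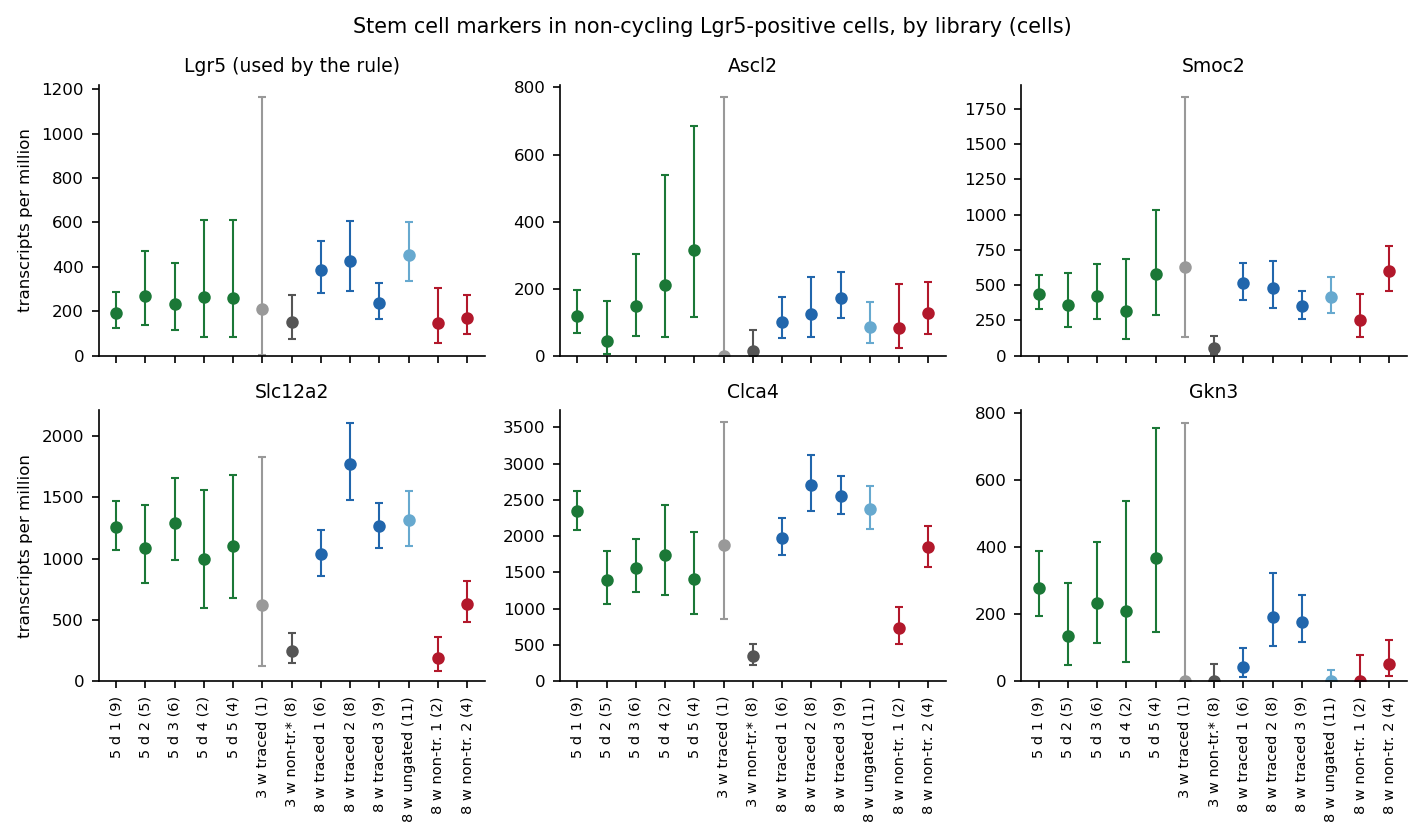
Levels in CPM of 6 stem cell markers in the summed members of each of the 13 libraries (d, days; w, weeks; number of member cells in brackets; the asterisk marks the 3-week library labelled as non-traced). Bars are exact 95% Poisson intervals, which cover counting error only; traced libraries of 5 days and 8 weeks overlap for Smoc2 and Slc12a2, and the asterisked library lies low for Slc12a2, Clca4 and Smoc2.

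How many kept cells were members was compared between groups over libraries. At 5 days the shares were 12.2%, 7.46%, 9.52%, 2.94% and 6.67% (mean 7.75% ± 3.43, SD, n = 5). In 8-week traced CD24+ cells they were 6.90%, 12.3% and 13% (mean 10.7% ± 3.36, n = 3), and in non-traced CD24+ cells 2.38% and 6.35% (mean 4.37% ± 2.81, n = 2). All 3 traced shares lay above both non-traced shares, with a difference of 6.38 percentage points and an exact two-sided permutation p = 0.2, the smallest that 3 against 2 libraries can give. The 8-week traced share was 3.00 points above the 5-day share, with overlap (exact permutation p = 0.25). This difference was 1.80 points without 5-day replicate 4, 1.85 without 8-week replicate 3 and 4.92 without 8-week replicate 1. Both comparisons gave 0.25 after Benjamini-Hochberg adjustment over the 2. The 8-week library without the gate had 11 members of 80 cells (13.8%, 95% exact binomial interval 7.07 to 23.3). The library labelled 3-week non-traced CD24+ had 8 of 50 (16%, 7.17 to 29.1) and the 3-week traced CD24+ library 1 of 62 (1.61%, 0.0408 to 8.66). When classes were set after thinning every cell to 3000 transcripts, the means were 6.33%, 7.12% and 2.18% for 5-day, 8-week traced and non-traced cells.

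Members were then set against the Lgr5-undetected cells of the same libraries, which asks what accompanies a detected Lgr5 transcript among non-cycling cells under the limits of the rule. No limit removes enterocytes from either class. At 5 days the 10 enterocyte markers summed to 46.3 to 202 per 10000 in Lgr5-undetected cells and to 8.41 to 227 in members. The sums of each class per library were compared with edgeR's quasi-likelihood test with the library as a block and Benjamini-Hochberg adjustment over all genes tested. Libraries with under 3 cells of a class were left out of every such test, which removed 5-day replicate 4, with 2 members.

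At 8 weeks, members held more of the Wnt feedback gene Axin2 and of Clca4 than the Lgr5-undetected cells. They held less of Insm1, a transcription factor gene of the endocrine lineage, and of the goblet gene Tff3. Axin2, which encodes a scaffold of the complex that degrades beta-catenin, stood at 413, 303 and 250 CPM in members and at 140, 52 and 56.3 in Lgr5-undetected cells of replicates 1 to 3 (log2 fold change 1.93, SE 0.35, adjusted p = 0.0444). Clca4 stood at 1979, 2710 and 2560 against 1006, 793 and 873 (1.42, SE 0.20, adjusted p = 0.0206). Every library was higher in members for both genes. Axin2 could pass the filter on low counts only through the members, so its call is given as a description.

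Of 1429 genes tested, 20 passed an adjusted p of 0.05 (1.4%), 8 higher (0.56%) and 12 lower (0.84%) in members. The other rises were Ckb, a creatine kinase (2.92), Sectm1b (2.66), Amica1, a junctional adhesion protein (1.77), Ifitm3, an interferon-induced membrane protein (1.63), the ornithine aminotransferase gene Oat (1.57) and 2210407C18Rik (1.34). Ifitm3 stood at 859, 729 and 928 CPM in members and at 293, 299 and 197 in Lgr5-undetected cells. The largest falls were in Nkx2-2, Insm1, Cdkn1a, which encodes the cell cycle inhibitor p21, Hepacam2, Cbfa2t3 and the trefoil factor gene Tff3. Of the cell type markers, 1 of 4 goblet genes tested fell and 0 of 1 enteroendocrine gene. Nkx2-2, also a transcription factor gene of the endocrine lineage, had 0 transcripts in members and 293, 130 and 366 CPM in Lgr5-undetected cells. This is at least 27.6-fold lower against a floor of 3 transcripts over the group. Nkx2-2 could pass the filter only through the Lgr5-undetected cells, so its call is given as a description. Since a gene could pass the filter through 1 class alone, the counts of calls describe the tested genes alone. Tff3 stood at 531, 55 and 665 against 3223, 5005 and 3999 (log2 fold change −3.39, SE 0.55).

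Summed markers of other types were higher in the Lgr5-undetected cells. Enteroendocrine markers outside the rule summed to 10.01 to 24.6 per 10000 in the Lgr5-undetected cells of the 3 libraries, against 1.25 to 2.19 in members, and goblet markers to 42.8 to 190 against 3.85 to 22.2. The part of this composition in the 20 calls was not tested. Few cells stand behind them, 23 members against 20 Lgr5-undetected cells. Without replicate 3 there were 4 calls, none of the 20. Without replicate 2 there were 115 calls, which held all 20, and without replicate 1 there were 15, of which 8 were among the 20. Axin2 and Ifitm3 lost their calls without replicate 1 or 3, and Clca4 without replicate 3.

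At 5 days no gene of 1583 passed in the same comparison (0%), with 196 at an unadjusted p under 0.05, while DESeq2 called 35 genes. Without 5-day replicate 2 edgeR called 259 genes, and without replicate 1, 3 or 5 it called 0. The cause was not tested. The genes nearest the threshold were stem cell genes. Slc12a2 stood at 1260, 1083, 1289 and 1101 CPM in members of replicates 1, 2, 3 and 5 and at 336, 328, 446 and 738 in Lgr5-undetected cells (log2 fold change 1.58, SE 0.27, adjusted p = 0.0928). Smoc2 stood at 439, 361, 423 and 576 against 116, 174, 157 and 188 (1.62, SE 0.29, adjusted p = 0.0928). Gkn3 stood at 279, 135, 232 and 367 against 33, 38.6, 74.3 and 130 (2.17, SE 0.39, adjusted p = 0.0928). In all 4 libraries each of these 3 genes was higher in members. Gkn3 could pass the filter on low counts only through the members. Of 22 enterocyte genes tested at 5 days 0 passed, and 1 had a positive fold change, with a median of −0.90. The part of differing enterocyte content in this comparison was not tested.

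The list of Lgr5 stem cell signature genes, chosen with earlier results of these data known, holds 38 genes. Of these, 11 could be tested at 5 days: all 11 had a positive fold change, with a median of 1.58 beside −0.03 over all genes, and 9 had 1 direction in every library, as did 23.9% of all genes tested. At 8 weeks 16 could be tested: 3 rose (Sectm1b, Axin2 and Clca4), 13 did not pass, 15 had a positive fold change, the median was 1.01 beside 0.01, and 13 had 1 direction in every library, as did 40.7% of all genes. Axin2 could pass the filter only through the members. Whether the member effect differs between the times was tested as an interaction over both sets of libraries: 0 of 2001 genes passed in edgeR, with 141 at an unadjusted p under 0.05.

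**Figure D3:**
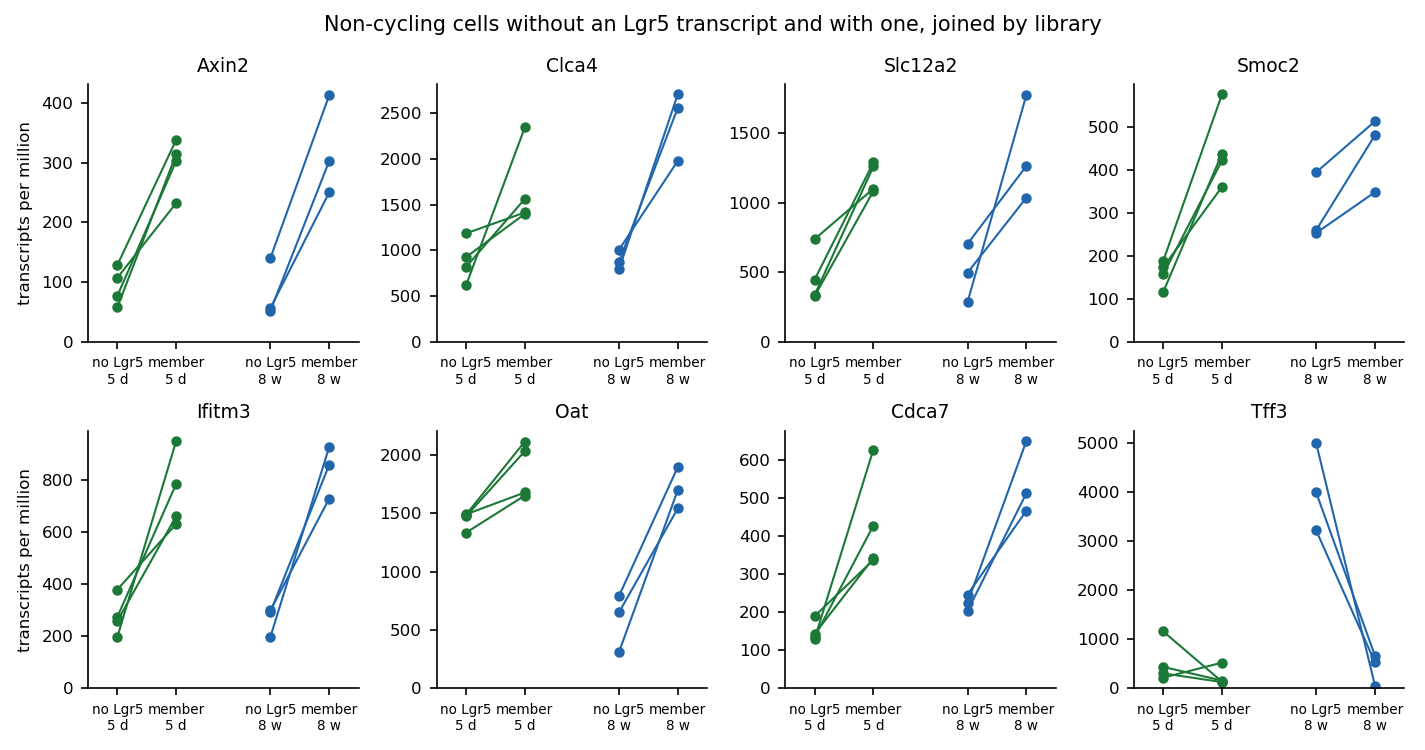
Levels in CPM of 8 genes in Lgr5-undetected cells and members of the same library, joined by a line (green, 5-day replicates 1, 2, 3 and 5; blue, 8-week traced CD24+ replicates 1 to 3). Axin2, Clca4, Slc12a2, Smoc2, Ifitm3, Oat and Cdca7 are higher in members in every library, and Tff3 is lower in all 3 libraries of 8 weeks.

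No signalling gene of the Wnt or Notch lists passed between members and Lgr5-undetected cells, apart from Axin2 of the signature. Among Wnt receptors, ligands and targets, 5 of 33 could be tested at each time and 0 passed. Ctnnb1, which encodes beta-catenin, had log2 fold changes of 0.21 (SE 0.25) at 5 days and 0.42 (SE 0.28) at 8 weeks, and the cyclin gene Ccnd1 had 0.15 and 0.11. Of 18 Notch genes, 1 and 2 could be tested and 0 passed; Hes1, a Notch target that holds back secretory fate, had 0.84 (SE 0.56) and 0.75 (SE 0.36). Most receptors and ligands of these pathways were too low for a test in sums of this size. Of 8 genes linked to reserve stem cells, 2 and 3 could be tested and 0 passed: the log2 fold changes of Hopx were 0.69 (SE 0.28) and −0.01 (SE 0.33).

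Members were next set against cycling Lgr5-positive cells of the same 5-day libraries. The rule separates these classes by 8 cycle genes, so the other genes of division follow from it and are given as a description. In these libraries 24 members were set against 39 cycling cells. Of 1161 genes, 17 passed (1.46%), and 16 of them were lower in members (1.38%). They include the tubulin genes Tuba1b (282 ± 46 against 1500 ± 160 CPM, SD, n = 4) and Tubb5, the chromatin protein gene Hmgb2 (196 ± 104 against 961 ± 253) and the histone gene H2afz (538 ± 101 against 1430 ± 121). The 1 gene higher in members (0.0861%) was Adh1, an alcohol dehydrogenase, at 1148, 1264, 803 and 1310 CPM against 681, 360, 536 and 511 in cycling cells of replicates 1, 2, 3 and 5 (log2 fold change 1.17, SE 0.24, adjusted p = 0.0318). Leaving out replicate 1, 2, 3 or 5 gave 6, 31, 1 and 27 calls, and Adh1 lost its call without replicate 1 or 3.

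No stem cell signature gene passed between members and cycling cells, of 11 tested, with a median log2 fold change of 0.27 beside 0.01. Slc12a2 had 0.56 (SE 0.19, adjusted p = 0.286), Smoc2 0.56 (SE 0.22, adjusted p = 0.392), Gkn3 0.75 (SE 0.30, adjusted p = 0.4002), Clca4 0.21 (SE 0.20) and Ascl2 −0.07 (SE 0.41). Slc12a2 and Smoc2 were higher in members in all 4 libraries, and 18.9% of all genes tested had 1 direction in every library.

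Between members of 8 weeks and of 5 days, 4 of 9 antigen presentation genes tested were higher at 8 weeks and 6 of 10 enterocyte genes tested were lower. The following 3 things differ together here and cannot be told apart: the time since tamoxifen, the CD24 gate and the mice. In members, the female X-inactivation transcript Xist stood at 0 to 7.98 CPM at 5 days and at 59 to 248 in the 8-week traced CD24+ libraries, and the Y-linked Ddx3y at 0 to 105 and at 0, so that sex-linked transcripts differed between the groups as well, and their part in the other differences was not tested. With edgeR, 133 of 1317 genes passed (10.1%), 70 higher (5.32%) and 63 lower (4.78%) at 8 weeks. Without the genes of the rule, 69 of 1313 were higher and 63 lower. A gene could pass the filter on low counts through 1 group alone, so these counts describe the tested genes alone. Leaving out 5-day replicate 1 or 3 gave 75 and 88 calls, leaving out 8-week replicate 1, 2 or 3 gave 50, 66 and 56, and 5-day replicates 2 and 5 moved the count by less than 1.5 times.

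Major histocompatibility complex class II molecules present peptides to CD4 T cells and in the intestine are made by crypt cells as well as by immune cells. H2-Aa encodes the alpha chain and H2-Ab1 the beta chain of the I-A molecule, and H2-Eb1 the beta chain of I-E. The genes lie together on chromosome 17, H2-Ab1 at chr17:34257689-34269419, H2-Aa at chr17:34282744-34287823 on the minus strand and H2-Eb1 at chr17:34305867-34316674. Promoters of this family share an inverted CCAAT element, the Y box, bound by the factor NF-Y. H2-Aa and H2-Eb1 passed the test between the times, as did H2-Ab1 and the class I gene H2-D1. H2-Ab1 was not among the genes matched to a promoter and was not searched, and H2-D1, which also holds the letters, is not shown. The RefSeq sequences of 250 bases before the start sites of H2-Aa (minus strand, chr17:34287824-34288073) and H2-Eb1 (plus strand, chr17:34305617-34305866, both GRCm38.p6) are shown, with the Y box letters CTGATTGG in capitals.
H2-Aa: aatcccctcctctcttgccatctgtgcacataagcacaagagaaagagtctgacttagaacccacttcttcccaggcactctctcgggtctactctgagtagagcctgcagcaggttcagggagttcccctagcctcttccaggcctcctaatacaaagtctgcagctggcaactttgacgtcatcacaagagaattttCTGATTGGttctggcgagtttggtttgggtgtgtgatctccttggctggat
H2-Eb1: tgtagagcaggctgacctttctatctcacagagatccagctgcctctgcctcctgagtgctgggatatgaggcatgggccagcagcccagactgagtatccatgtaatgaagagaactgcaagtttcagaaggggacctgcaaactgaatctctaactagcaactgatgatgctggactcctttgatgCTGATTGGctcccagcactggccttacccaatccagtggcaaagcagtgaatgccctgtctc
The letters begin 51 bases before the start site in H2-Aa and 62 in H2-Eb1. Searched on both strands, with no other motif, they occur in 3.83% of 32851 promoters of the same length and in 5 of the 12 antigen presentation genes that matched the table. Of these 5, H2-D1, Psmb9 and Tap1 are not class II genes. A match of letters is a description and not evidence of binding.

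H2-Eb1 stood at 994, 660 and 1106 CPM in the members of 8-week traced CD24+ replicates 1 to 3 and at 375, 293, 106, 158 and 157 in 5-day replicates 1 to 5. Every 8-week library lay above every 5-day library, as was the case in 1 direction or the other for 20.3% of all genes tested. The log2 fold change was 1.78 (SE 0.34, adjusted p = 0.00707), and it passed in all 17 alternative settings, between 1.5 and 2.51. H2-Ab1 stood at 960, 1018 and 1125 against 335, 587, 127, 368 and 157, again without overlap (1.65, SE 0.36, adjusted p = 0.0146), and passed in 16 of 17 settings. H2-Aa stood at 868, 481 and 849 against 287, 564, 190, 263 and 157, where 8-week replicate 2 lies below 5-day replicate 2 (1.2, SE 0.35, adjusted p = 0.0471). The call of H2-Aa was lost without 5-day replicate 1 or 3 or 8-week replicate 1 or 3 (log2 fold changes 1.00 to 1.13). The class I gene H2-D1 stood at 657, 729 and 730 against 311, 429, 211, 158 and 367 (1.08, SE 0.26, adjusted p = 0.0244), and lost its call without 5-day replicate 1 or 3 or 8-week replicate 2 or 3 (0.89 to 1.10).

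Of the 17 antigen presentation genes, 9 could be tested: 4 rose, 0 fell and 5 did not pass, with a median log2 fold change of 1.05 beside 0.01 over all genes. In the 8-week library without the CD24 gate, members stood at 1030 for H2-Eb1, 869 for H2-Ab1, 822 for H2-Aa and 586 for H2-D1, each above every 5-day library. In the non-traced library with 4 members they stood at 685, 854, 464 and 780. The same direction was seen in kept cells that were not members, at other levels: H2-Eb1 averaged 285 CPM there at 8 weeks in the traced CD24+ libraries and 154 at 5 days, and H2-D1 averaged 667 and 243. For H2-Eb1 the 8-week libraries gave members 660 to 1106 against 207 to 338 in the other cells, a gap between cell kinds that was not tested here. The 9 leukocyte markers were all at 0 in the members of the 8-week traced libraries.

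**Figure D4:**
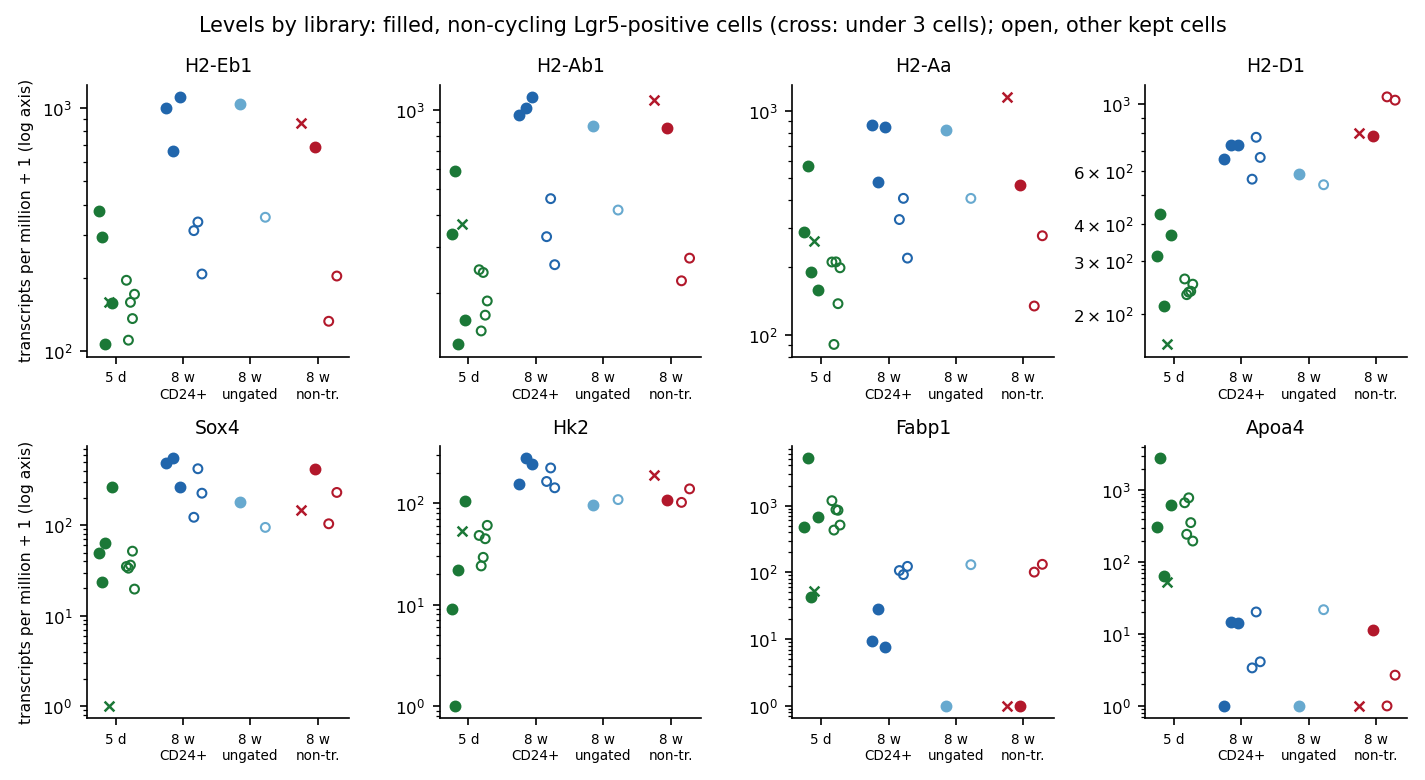
Levels in CPM plus 1 (log axis) by library in 4 groups: filled points are summed members (crosses where under 3 cells), open circles are the other kept cells of the library. H2-Eb1 and H2-Ab1 of 8-week members lie above all 5-day libraries with and without the CD24 gate, and Fabp1 and Apoa4 lie below.

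Of 30 listed enterocyte genes, 10 could be tested: 6 fell at 8 weeks, 0 rose and 4 did not pass, with a median log2 fold change of −2.81 beside 0.01. Apoa4, which packages dietary fat, stood at 0, 13.8 and 13.2 CPM at 8 weeks and at 303, 2775, 63.4, 52.5 and 629 at 5 days (log2 fold change −6.55, SE 1.27, adjusted p = 0.00767). Fabp1, the liver-type fatty acid binding protein, stood at 8.42, 27.5 and 6.58 against 471, 5099, 42.3, 52.5 and 681 (−6.95, SE 1.40, adjusted p = 0.00883). The groups do not overlap for either gene. At 8 weeks only 3 Apoa4, 4 Fabp1 and 1 Apoa1 transcript were counted. These 3 genes could pass the filter only through the 5-day level, so the count and the median describe the tested genes alone.

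A single cell, in 5-day replicate 2, gave 68.1% of the 5-day Apoa4 and 73.5% of the Fabp1 transcripts in the tested libraries. Without the enterocyte-rich cells of 5-day replicates 1 and 2, the tested 5-day libraries ranged from 63.4 to 633 CPM for Apoa4 and from 42.3 to 685 for Fabp1, above 0 to 14.4 and 0 to 27.5 at 8 weeks without the cells rich in other markers. Ces2e, an intestinal carboxylesterase, stood at 8.42, 55 and 39.5 against 510, 993, 148, 158 and 681 (−4.11, SE 0.61, adjusted p = 0.00163), and passed in all 14 settings in which it could be tested. Ces2e too could pass the filter only through the 5-day level, so its call is given as a description. Apoa1, Fabp1 and Fabp2 lost their calls without 8-week replicate 1, with edgeR adjusted p = 0.0592, 0.0585 and 0.0777, and Fabp1 and Fabp2 also without 8-week replicate 3. In the kept cells that are not members, Fabp1 averaged 768 at 5 days and 106 at 8 weeks in the traced CD24+ libraries. In Lgr5-undetected cells the 10 enterocyte markers summed to 46.3 to 202 per 10000 at 5 days, 5.46 to 10.98 in the 8-week traced CD24+ libraries and 167 in the 3-week traced CD24+ library. The part of differing cell make-up or free RNA in the members' values was not tested.

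Most stem cell signature genes did not pass between the times. Of 20 tested, 3 rose at 8 weeks, 0 fell and 17 did not pass, with a median log2 fold change of 0.38. Cd44, a hyaluronan receptor and Wnt target, stood at 202, 426 and 342 against 120, 90.3, 106, 105 and 157 (1.42, SE 0.34, adjusted p = 0.0241). Pdgfa, a growth factor gene, rose by 1.78 (SE 0.46, adjusted p = 0.0296). Without 8-week replicate 2 both missed the threshold (edgeR adjusted p = 0.101 for Cd44 and 0.0962 for Pdgfa), as they did without 5-day replicate 3 (0.0649 and 0.0826). Cd44 also missed it without 5-day replicate 1 (edgeR adjusted p = 0.0587) or 8-week replicate 3 (0.0773), and Pdgfa without 8-week replicate 1 (0.0999). The fourth of the 5-day levels given for Cd44 is that of the 2 members of replicate 4, which the fit leaves out. Cd44 could pass the filter on low counts only through the 8-week level, so its call is given as a description. Slc12a2 (0.13, SE 0.23), Smoc2 (−0.02, SE 0.25), Ascl2 (0.00, SE 0.39), Clca4 (0.44, SE 0.22) and Gkn3 (−0.91, SE 0.44, adjusted p = 0.224) did not pass.

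Among other listed genes, the transcription factor gene Sox4 stood at 489, 550 and 263 CPM at 8 weeks and at 47.9, 22.6, 63.4, 0 and 262 at 5 days (2.61, SE 0.49, adjusted p = 0.00689). It was called in all 16 settings, although 5-day replicate 5 lies next to the lowest 8-week library, 262 against 263. Hk2, hexokinase 2, stood at 152, 275 and 243 against 7.98, 0, 21.1, 52.5 and 105 (3.51, SE 0.63, adjusted p = 0.00565). Sox4 and Hk2 could pass the filter on low counts only through the 8-week level, so their calls are given as a description. Of the Wnt list 1 of 6 tested genes rose, the cyclin gene Ccnd2 (1.32, SE 0.34, adjusted p = 0.0305), whose groups overlap and which lost its call without any 1 of 4 libraries (5-day replicates 1 and 2, 8-week replicates 1 and 3). Hes1 (0.43, SE 0.42), Id1 (0.04, SE 0.34) and Myc (0.14, SE 0.44) did not pass. Of 17 endoplasmic reticulum folding genes tested, 1 rose, beside 5.32% of all genes: the chaperone gene Hsp90b1 (1.14, SE 0.30, adjusted p = 0.0309). Its call was lost without 5-day replicate 1 or 3 or any 1 of the 8-week replicates (edgeR adjusted p = 0.0738 to 0.152), and it passed in 8 of 16 settings.

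Traced and non-traced members of the CD24 gate at 8 weeks were compared last. Only 1 non-traced library had 3 or more members, so the test set 3 libraries against 1, which was assumed to vary like the others. A gene could pass the filter through that 1 library alone. Gm15315 and St3gal1, for example, had no transcript in traced members. The counts of rises and falls below thus describe the tested genes alone. Of 3073 genes 67 passed (2.18%), 9 higher (0.293%) and 58 lower (1.89%) in traced members. The rule limits 7 of the genes that fell, among them Defa24 and Fcgbp, and nothing is read from these. Outside the rule, 9 of 3056 genes were higher and 51 lower. These falls include genes known from goblet and Paneth cells: the trypsin inhibitor gene Spink4, the mucin gene Muc2, the guanylate cyclase activators Guca2a and Guca2b, and the chemokines Ccl6 and Ccl9. A single non-traced cell gave the largest share for 50 of all 58 genes that fell. Over the 58, the cell with the largest share gave a median of 83.7% of the non-traced transcripts, and 23 of the genes had at least 90% from 1 cell. That cell had 33894 transcripts, 4 of them Lgr5, with 410 goblet and 321 Paneth marker transcripts and 18.5 stem marker transcripts per 10000. Without 8-week traced replicate 1 the calls were lost, and the reason was not tested.

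Among the 9 rises, Oat stood at 1895, 1541 and 1698 CPM in traced members and at 462 and 538 in the non-traced libraries with 2 and 4 members (log2 fold change 1.64, SE 0.31, adjusted p = 1.16e-05). In kept cells that are not members Oat averaged 652 in the traced and 342 in the non-traced libraries, in the same direction. Id1, a target of BMP signalling, stood at 118, 193 and 217 in traced members against 0 and 10.5 (3.90, SE 0.90, adjusted p = 0.00114). Id3, a further BMP target, stood at 84.2, 55 and 138 against 42 and 0, and over the tested libraries was at least 3.22-fold higher against a floor of 3 transcripts. Slc12a2 stood at 1036, 1775 and 1264 against 189 and 633 (1.05, SE 0.31, adjusted p = 0.0382) and lost its call without any 1 of the 3 traced libraries. Oat, Id1 and Id3 lost their calls without traced replicate 1. With 2 and 4 cells the non-traced levels describe these cells more than the population.

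The 3-week libraries hold too few members for a comparison. The 1 member of the traced CD24+ library held 626 CPM for Smoc2, 626 for Slc12a2 and 1879 for Clca4, and no Ascl2 or Gkn3, in 4801 transcripts. The 8 members of the 3-week library labelled as non-traced held 5076 CPM for Fabp1, above the 5-day libraries other than replicate 2, and the H2-Eb1 level was 195.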

How the data were processed

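Single cells were measured by CEL-seq in 13 libraries of 96 barcodes. The deposited values are estimated counts (also called expected counts) of molecules, made from molecular barcodes with a correction for collisions and given for each cell, not scaled between cells. Per the submitters' processing notes, reads were aligned with BWA 0.6.2-r126 to mm10, and the gene models and read filters were not given in the sources used here. Of the combined table, 576 columns could not be matched to 1 sample by name and entered no result. The counts of each class were summed per library, rounded, filtered with filterByExpr, scaled by TMM and tested with edgeR 4.0.16 (quasi-likelihood, Benjamini-Hochberg over all genes tested, limma 3.58.1, R 4.3.3), with DESeq2 1.42.0 as an alternative. Shares were compared by exact permutation over libraries with Python 3.11.15, numpy 2.4.6, pandas 2.3.3 and scipy 1.17.1. Levels are transcripts per 1000000 summed transcripts (CPM), and intervals cover counting error only. Genes of the rule were left out of the tests within libraries. Named genes are, per comparison, the 10 largest rises and falls past an adjusted p of 0.05 with at least 20 CPM and no overlap or 1 direction in every library, the cell type markers, and up to 10 called and 4 other genes per list; the text gives a part of these. Lists cover stem cell signature, reserve stem cell, Wnt, Notch, EGF and BMP, cycle, enterocyte, innate defence, antigen presentation, fatty acid, cholesterol, immediate early and endoplasmic reticulum genes. The members and lists were chosen with earlier results of these data known. The scripts were tested on simulated data. No doublet detection was run. Results for some genes are not reported here, though the counts over lists include them.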

Additional observations from a re-analysis of the deposited data

Results flagged for a closer look

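In 38 groups of 4 libraries or more, the highest or lowest library was compared with its neighbours by Dixon's ratio at the 95% level. Only 5-day cells have that many libraries, so every group screened was of 5 days. In 4 groups a library stood apart among the 4 tested 5-day libraries, and chance gives about 1 in 20. In the members of 5-day replicate 2, Fabp1 stood at 5099 CPM with 681 in the nearest library, and Apoa1 at 3768 with 590. In 5-day replicate 5, Sox4 stood at 262 with 63.4 in the nearest library, and the chromatin remodeller gene Chd7 at 52.4 with 23.9. These members are 4 cells with 19082 transcripts in sum, so that the 52.4 CPM of Chd7 is 1 transcript.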

How the results depend on the processing

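Both differences in the share of members kept their direction in every alternative run. The difference between 8-week traced and 5-day cells (3.00 points) lay between 0.80 with classes set after thinning and 5.85 with at least 2 Lgr5 transcripts, and that between traced and non-traced cells (6.38 points) between 4.40 and 8.37. For the latter no alternative could reach the threshold with so few libraries. The counts of genes called moved by over 1.5 times in the following settings, and the cause was not tested. Against Lgr5-undetected cells at 5 days (0 calls), DESeq2 gave 35, no filter on low counts 36, classes set after thinning 1 and at least 2 Lgr5 transcripts 145, and leaving out 1 library gave 0 to 259. At 8 weeks (20 calls), no filter gave 124, at least 5000 transcripts per cell 38, classes after thinning 59, sums after thinning 2 and halved limits 1, and leaving out 1 library gave 4 to 115. Against cycling cells (17), DESeq2 gave 10, no filter 94, classes after thinning 11 and at least 2 Lgr5 transcripts 10, and leaving out 1 library gave 1 to 31. Between 5 days and 8 weeks (133), DESeq2 gave 88, no filter 262, classes after thinning 78, sums after thinning 30, at least 2 Lgr5 transcripts 80 and halved limits 58, and leaving out 1 library gave 50 to 144. Between traced and non-traced members (67), DESeq2 gave 16 and sums after thinning 13, and leaving out 1 library gave 0 to 63. Alternatives chosen after seeing the data admitted libraries with at least 2 cells: 13 calls against Lgr5-undetected cells at 5 days and 104 between traced and non-traced members.

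With the replicate block, that is the replicate number as a block, 160 genes passed between 5 days and 8 weeks, and 90 between traced and non-traced members with at least 2 cells per library. Same-numbered libraries of 5 days and 8 weeks had correlations of deviations of 0.0424, −0.0261 and 0.0357, so the numbers do not pair them. The log2 fold change of Smoc2 in these block fits was 0.0636 and 0.22.

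Directions turned for stem markers that were past the threshold in neither setting. Against cycling cells, the log2 fold change of Gkn3 was −0.12 with halved limits. That of Clca4 was −0.0375 with classes after thinning, −0.12 with sums after thinning and −0.0737 without 5-day replicate 1. That of Ascl2 was 0.13 with at least 2 cells and ranged from −0.37 (without 5-day replicate 5) to 0.31 (without replicate 2). Between the times, with at least 2 Lgr5 transcripts, Clca4 was at −0.00338 and Slc12a2 at −0.0736, and Slc12a2 was at −0.10 without 8-week replicate 2. Smoc2 was at 0.0272 without TMM, 0.0909 with no filter, 0.0369 with 5000 transcripts, 0.38 with classes after thinning, 0.20 with halved limits, 0.0518 with at least 2 cells, 0.0415 without 5-day replicate 5 and −0.14 to 0.19 without 8-week replicate 1 or 3. Ascl2 was at −0.10 with DESeq2, −0.0831 with at least 2 cells and −0.23 to 0.24 without 5-day replicate 2 or 5. Between traced and non-traced members, Ascl2 was at −0.25 without traced replicate 3 and 0.25 without replicate 1.

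Not run were the round of library preparation as a block, since column names do not give the replicate, and, for traced against non-traced members, classes after thinning and halved limits, which left under 3 non-traced cells per library.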

Other observations

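Some of the largest differences between 5-day and 8-week members were in transcripts outside the lists, with the same direction in the other kept cells. The nuclear RNA Malat1 stood at 144, 203, 106, 52.5 and 52.4 CPM in 5-day members and at 750, 1610 and 612 in 8-week traced CD24+ members, and averaged 156 and 1880 in the other cells, so that the other cells of 8 weeks averaged above each of the 3 member levels. In the other cells of the traced CD24+ library of 3 weeks it stood at 2776. The predicted gene Gm11517 stood at 1468, 1399, 1374, 2522 and 1677 in 5-day members and at 92.7, 55.03 and 72.4 at 8 weeks, and averaged 1394 and 60.02 in the other cells, with 123 in those of the traced CD24+ library of 3 weeks. In members Gm6607 had no transcript at 8 weeks, at least 35.4-fold lower than at 5 days against a floor of 3 transcripts over the group, and averaged 270 and 2.68 in the other cells of 5 days and 8 weeks.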
